A study of Drosophila melanogaster with 10 samples.

Results

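Insulin signalling in the larval brain of Drosophila melanogaster was described here through 10 genes chosen by name from the count table of 16727 genes: the insulin-like peptides Ilp2, Ilp3, Ilp5, Ilp6, Ilp7 and Ilp8, the receptor InR, the secreted binding protein ImpL2, the receptor substrate chico and the receptor adaptor Lnk. RNA was polyA-selected from brains of wandering larvae at the end of the last larval instar, 25 brains per library. The groups were 12xWT males (3 libraries), 12xWT females (3 libraries), yw males (2 libraries) and yw females (2 libraries). 12xWT is named for 12 wild-type histone gene repeats, and the deposited comparison names yw, a stock marked by the body colour gene yellow and the eye colour gene white, as 200xWT. A repeat holds a copy of each replication-dependent histone gene. In the stock system that uses this name, the native histone locus is deleted and the repeats sit on a transgene, which is background and not stated in the labels. Repeat number and every other difference between these genetic backgrounds cannot be told apart. Nothing in the labels says whether replicate libraries came from separate crosses, so p-values measure the spread between these libraries, which may be technical.

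Insulin-like peptides are secreted hormones that bind the receptor tyrosine kinase InR. In the fly brain, a small cluster of median neurosecretory cells, the insulin-producing cells, makes Ilp2, Ilp3 and Ilp5 and releases them into the circulation, where they raise growth and lower circulating sugar. Active InR signals through chico, a relative of the mammalian insulin receptor substrates, and Lnk to phosphoinositide 3-kinase and the kinase Akt1, which keeps the transcription factor foxo out of the nucleus. When signalling is low, foxo enters the nucleus and raises genes such as Thor, the fly 4E-BP that binds the translation factor eIF4E.

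The libraries held between 52.0 and 79.9 M gene-assigned counts, and levels are in counts per 1 M counts (CPM). Of the 16727 genes, 11146 passed a filter on low counts and were tested, among them 9 of the 10 insulin genes. The gene white stood at 224 to 299 CPM in 12xWT and at 0.0890 to 0.175 CPM in yw. The sex labels were less clean: 8 tested Y-linked genes summed to 19.8 to 22.8 CPM in 12xWT males, 4.39 to 17.9 CPM in 12xWT females, 0.105 to 0.260 CPM in yw males and 0 to 0.0356 CPM in yw females. The male-specific RNA roX2 stood at 35.7 to 48.0 CPM in 12xWT males, 7.34 to 15.1 CPM in 12xWT females, 65.3 to 67.8 CPM in yw males and 0.0769 to 2.88 CPM in yw females. Whether the 12xWT female pools held some males was not tested, and it bears on every value within a sex or between the sexes below. Both signals were highest among females in 12xWT female replicate 2, and calls of insulin genes that change without it are given both ways. Of 9 neuron, 8 neuroblast and 8 glia markers, none was at 0 and all were tested. The same held for the fat body, salivary gland, muscle, imaginal disc, eye disc and blood cell markers. Detection alone therefore cannot check the tissue label.

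Ilp2, Ilp3 and Ilp5 lie with Ilp1 and Ilp4 in a cluster of 25464 bp on chromosome 3L of the dm6 genome build. Ilp2 (FBgn0036046) spans 9799698 to 9800440 on the plus strand, Ilp3 (FBgn0044050) 9801298 to 9802120 on the minus strand and Ilp5 (FBgn0044048) 9823349 to 9823897 on the minus strand. Each has 2 exons and shares no exonic sequence with another gene. On chromosome X lie Ilp6 (FBgn0044047, 2331493 to 2334658, minus strand) and Ilp7 (FBgn0044046, 3667621 to 3668845, plus strand). Ilp8 (FBgn0036690, 17029812 to 17032080, minus strand) and ImpL2 (FBgn0001257, 4224006 to 4236147, minus strand) are on 3L, InR (FBgn0283499, 21570248 to 21619321, minus strand) and Lnk (FBgn0028717, 25888542 to 25893270, plus strand) on 3R, and chico (FBgn0024248, 10242512 to 10247078, minus strand) on 2L. The counting used no strand information, and exons of 3 of these genes overlap another gene: Ilp7 by 9 bp with Parg, Ilp8 by 29 bp with CG7730 and CR45756, and chico by 380 of its 3578 exonic bp with the antisense RNA CR44995, which had no count in any library.

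Per length, Ilp2 was the most abundant of the 10 transcripts. Its level per kb of exon was 56.7 ± 8.57 CPM per kb (SD, n = 10), above 89.7% of the genes tested. InR followed at 31.9 ± 3.43 CPM per kb, then Lnk at 27.5 ± 0.674 and Ilp3 at 27.0 ± 2.92 CPM per kb (SD, n = 10 each). ImpL2 at 22.8 ± 6.23, Ilp5 at 15.98 ± 3.80, chico at 14.3 ± 0.506 and Ilp6 at 12.4 ± 1.84 CPM per kb came next. The ranges of mean ± SD did not overlap between Ilp2 and InR or between InR and Lnk, and did between each neighbouring pair from Lnk to Ilp6. Ilp7 at 0.843 ± 0.233 CPM per kb lay above 21.8% of the genes tested. Ilp8 was last at 0.0653 ± 0.0331 CPM per kb. Over all 10 libraries Lnk varied least, with a coefficient of variation of 2.45% in CPM, and among the tested genes Ilp7 and ImpL2 varied most, at 27.7% and 27.3%.

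**Figure D1:**
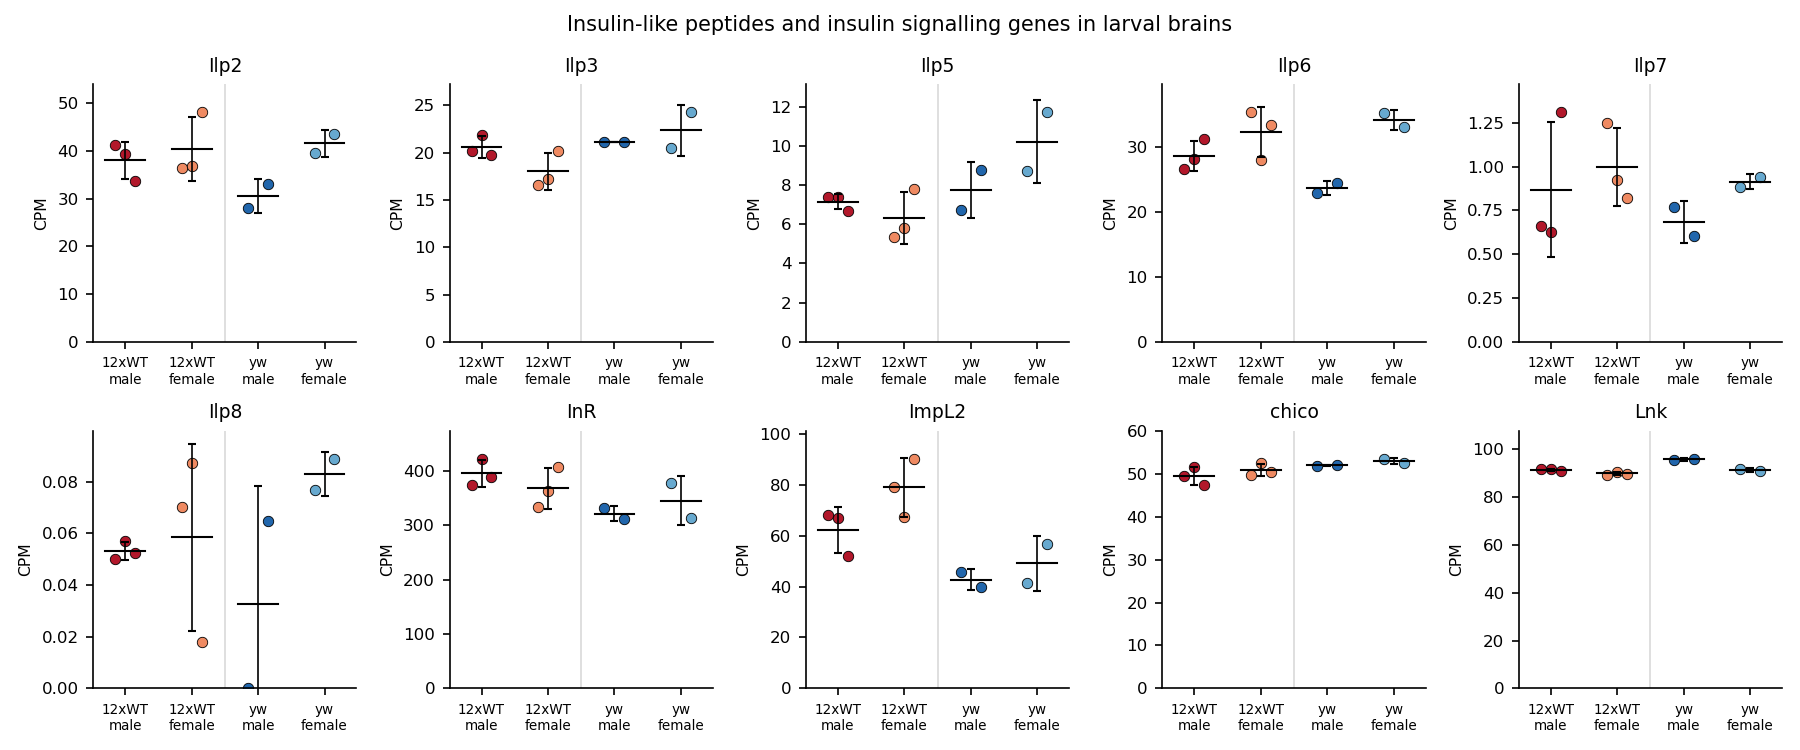
CPM of each of the 10 insulin genes (y axis, linear from 0) in every library, by genotype and sex; points are libraries, horizontal bars group means and error bars the SD (n = 3 per 12xWT group, n = 2 per yw group). ImpL2 lay at 52.0 to 90.3 CPM in 12xWT and at 39.8 to 56.9 CPM in yw, while chico and Lnk hardly varied.

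Between genotypes, ImpL2 was the insulin gene with the clearest change. ImpL2 is a secreted immunoglobulin-domain protein that binds insulin-like peptides and antagonises their action. It rose 1.51-fold in 12xWT over yw, and Lnk fell by 0.07 on the log2 scale; none of the other 7 tested genes passed the test. These 2 calls among 9 genes stand against 33.4% of all tested genes called between the genotypes, a share that is not above the background. The median log2 fold change of the 9 genes was 0.07, against 0.00047 over all genes tested, and the median absolute value was 0.17 against 0.12.

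Among the ligands, no peptide of the insulin-producing cells passed the test over both sexes. Ilp2, the main circulating insulin of the larva, stood at 41.2, 39.3 and 33.7 CPM in 12xWT males and 36.3, 36.8 and 48.2 CPM in 12xWT females, against 28.0 and 33.0 CPM in yw males and 39.5 and 43.6 CPM in yw females. The genotypes overlapped across sexes, and yw males held the 2 lowest values. Every 12xWT male lay above both yw males, where 51.1% of tested genes did not overlap, while females overlapped. The log2 fold change of Ilp2 was 0.12 (SE 0.12, edgeR adjusted p = 0.502). Here and below this is the quasi-likelihood test, adjusted by Benjamini-Hochberg over all genes tested, with 0.05 as the threshold. In males the log2 fold change of Ilp2 was 0.30 (edgeR adjusted p = 0.222) and in females -0.06 (edgeR adjusted p = 0.841). Ilp3 stood at 20.1, 21.9 and 19.7 CPM in 12xWT males and 16.6, 17.2 and 20.2 CPM in 12xWT females, against 21.1 and 21.1 CPM in yw males and 20.5 and 24.3 CPM in yw females. All 3 12xWT female libraries lay below both yw female libraries, where 42.7% of tested genes did not overlap, while males overlapped. Its log2 fold change was -0.20 (SE 0.081, edgeR adjusted p = 0.0875). Within females Ilp3 fell by 0.34 on the log2 scale (SE 0.099), which edgeR did not call (adjusted p = 0.0517). DESeq2's Wald test called Ilp3 in females (adjusted p = 0.0243). In males the log2 fold change of Ilp3 was -0.06 (edgeR adjusted p = 0.729).

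Ilp5, whose transcription is known to respond to feeding, had the lowest level of the 3 peptides. It had 7.38, 7.39 and 6.70 CPM in 12xWT males and 5.37, 5.79 and 7.81 CPM in 12xWT females, against 6.75 and 8.76 CPM in yw males and 8.73 and 11.7 CPM in yw females. Females did not overlap between genotypes, as for 42.7% of tested genes, and males did. Over both sexes the log2 fold change was -0.43 (SE 0.16, edgeR adjusted p = 0.0682), short of the threshold of 0.05. DESeq2's Wald test called Ilp5 (adjusted p = 0.0215), and so did edgeR without yw male replicate 1 (adjusted p = 0.0241). Within females alone Ilp5 fell by 0.72 on the log2 scale (SE 0.19, edgeR adjusted p = 0.0385), 1 of 9 insulin genes called against 12.6% of all genes. That call held in 9 of 16 alternatives. It was lost without the filter on low counts and without any of 6 libraries, among them 12xWT female replicate 2 (log2 fold change -0.65, edgeR adjusted p = 0.111) and yw female replicate 2 (-0.49, edgeR adjusted p = 0.258). The other 4 were 12xWT female replicate 1 and each of the 3 12xWT male libraries, at edgeR adjusted p = 0.0991, 0.0520, 0.0585 and 0.0512. Over the alternatives the adjusted p in females lay between 0.00350 and 0.258.

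Of the 3 ratios between these peptides within a library, Ilp5 to Ilp2 did not overlap between genotypes. In bulk RNA, fewer insulin-producing cells and less RNA per cell cannot be told apart; a ratio of transcripts within a library does not depend on its depth. The ratio of Ilp5 to Ilp2 counts was 0.179, 0.188 and 0.199 in 12xWT males and 0.148, 0.157 and 0.162 in 12xWT females, against 0.241 and 0.265 in yw males and 0.221 and 0.269 in yw females. All 6 12xWT libraries lay below all 4 yw libraries. Within males the log2 fold change of 12xWT over yw was -0.14 for Ilp5 and 0.30 for Ilp2. Within females it was -0.72 for Ilp5 and -0.06 for Ilp2. Only the value of Ilp5 in females was called by edgeR. The lower ratio thus went with higher Ilp2 more than lower Ilp5 in males, and with lower Ilp5 in females. Among 8694 other genes with a mean of at least 1 CPM, the ratio to Ilp2 was lower in 12xWT without overlap for 198 genes, or 2.28%, and the ratio did not overlap in either direction for 4.68%. Ilp2 itself varied over the libraries, with a coefficient of variation of 15.1% in CPM, and this enters every such ratio. Plain CPM did not overlap between genotypes for 24.0% of tested genes. The low shares for ratios to Ilp2 therefore do not measure how rare the Ilp5 result is. The ratio of Ilp5 to Ilp2 was chosen after the values were seen and was not tested. Ilp3 over Ilp2 averaged 0.496 ± 0.0630 in 12xWT (SD, n = 6) and 0.617 ± 0.105 in yw (SD, n = 4), and Ilp5 over Ilp3 averaged 0.348 ± 0.0233 in 12xWT and 0.411 ± 0.0679 in yw; both overlapped between genotypes. The summed level of the 3 peptides was 65.3 ± 7.02 CPM in 12xWT (SD, n = 6) and 66.8 ± 10.1 CPM in yw (SD, n = 4).

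**Figure D2:**
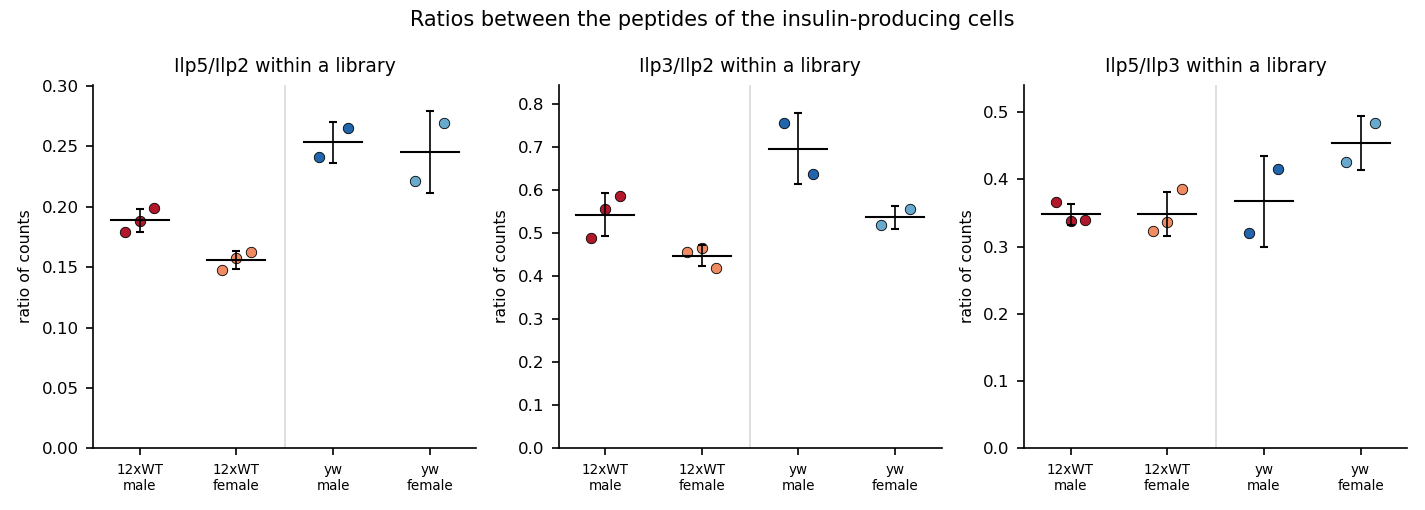
Ratio of counts within each library (y axis, linear from 0) for 3 pairs of peptides of the insulin-producing cells; points are libraries, horizontal bars means and error bars the SD (n = 3 per 12xWT group, n = 2 per yw group). The Ilp5 to Ilp2 ratio lay at 0.148 to 0.199 in 12xWT and at 0.221 to 0.269 in yw, and the other ratios overlapped.

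Dsk and Ilp1, also linked to these cells, were not called. Dsk, the sulfakinin satiety peptide that the insulin-producing cells also make, averaged 7.42 ± 0.589 CPM in 12xWT (SD, n = 6) and 6.997 ± 1.0 CPM in yw (SD, n = 4), a log2 fold change of 0.07 (SE 0.078, edgeR adjusted p = 0.546); it was named after its values were seen. Ilp1, a further peptide of the cluster, averaged 0.965 ± 0.234 CPM in 12xWT and 0.853 ± 0.0870 CPM in yw, with a log2 fold change of 0.15 (SE 0.20, edgeR adjusted p = 0.601). Ilp4 had 2 to 8 counts per library and was not tested. Of 16 tested genes for peptide hormones and peptide processing in neurosecretory cells, 2 were called higher and 4 lower, or 37.5% against 33.4% of all genes, with summed levels of 1520 to 1621 CPM in 12xWT and 1567 to 1621 CPM in yw.

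The remaining ligands are made by other cells. Ilp6, an insulin-like growth factor relative secreted by glia and by the fat body, had 26.6, 28.1 and 31.2 CPM in 12xWT males and 35.4, 28.1 and 33.5 CPM in 12xWT females, against 23.0 and 24.4 CPM in yw males and 35.2 and 33.0 CPM in yw females. The genotypes overlapped across sexes, while every 12xWT male lay above both yw males, where 51.1% of tested genes did not overlap. Its log2 fold change was 0.07 over both sexes (SE 0.089, edgeR adjusted p = 0.577), 0.25 in males (adjusted p = 0.0989 in an edgeR model with a mean per group; 0.0297 without 12xWT female replicate 2) and -0.10 in females (edgeR, adjusted p = 0.537). Of 8 glia markers 5 were called lower and 0 higher, or 62.5% against 33.4% of all genes. Their summed levels were 844 to 989 CPM in 12xWT and 947 to 1135 CPM in yw. Of 11 fat body markers 1 was called higher and 0 lower, or 9.09% against the same 33.4%. They had sums of 1448 to 1941 CPM in 12xWT and 1545 to 1693 CPM in yw and a median log2 fold change of 1.10. The lipoprotein gene Rfabg, at -0.0089, made up most of that sum, while the larval storage protein genes Lsp1alpha, Lsp1beta and Lsp2 stood at 1.88, 1.62 and 1.79 and Fbp1 at 1.72 on the log2 scale, none of them called (edgeR adjusted p = 0.325, 0.322, 0.227 and 0.2996); these genes were named after their values were seen. Their part in the level of Ilp6 was not tested.

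Ilp7, a relaxin-like peptide made by a few neurons of the ventral nerve cord, rested on 33 to 75 counts per library. It had 0.663, 0.628 and 1.31 CPM in 12xWT males and 1.25, 0.924 and 0.820 CPM in 12xWT females, against 0.769 and 0.601 CPM in yw males and 0.884 and 0.944 CPM in yw females. The genotypes overlapped, and 12xWT male replicate 3 and 12xWT female replicate 1 stood above the rest. The log2 fold change was 0.20 (SE 0.23, edgeR adjusted p = 0.516). Ilp8, a relaxin-like peptide secreted by growing or damaged imaginal discs that delays pupariation through the brain receptor Lgr3, was near the limit of detection. Its counts were 4, 3 and 3 in 12xWT males, 4, 5 and 1 in 12xWT females, 0 and 4 in yw males and 4 and 5 in yw females, and it was not tested. A count of 0 in yw male replicate 1 allows a level of up to 0.0524 CPM, a limit of counting error only. Lgr3 itself was measured at 4.25 ± 0.447 CPM in 12xWT (SD, n = 6) and 4.63 ± 0.540 CPM in yw (SD, n = 4), not called (log2 fold change -0.14, SE 0.097, edgeR adjusted p = 0.282).

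At the receptor, InR had 375, 423 and 390.0 CPM in 12xWT males and 334, 363 and 408 CPM in 12xWT females, against 331 and 312 CPM in yw males and 378 and 313 CPM in yw females. Males did not overlap between genotypes, as for 51.1% of tested genes, and females did. Its log2 fold change of 0.17 (SE 0.084, edgeR adjusted p = 0.143) was not called, though it was without 12xWT female replicate 1 (adjusted p = 0.0498, edgeR) and without yw female replicate 1 (adjusted p = 0.0287, edgeR). InR is itself a known foxo target. Downstream, chico stood at 49.5, 51.6 and 47.5 CPM in 12xWT males and 49.8, 52.5 and 50.5 CPM in 12xWT females, against 52.0 and 52.1 CPM in yw males and 53.6 and 52.5 CPM in yw females. Its log2 fold change of -0.09 (SE 0.031) just missed the threshold (edgeR adjusted p = 0.0508), and it was called without 12xWT female replicate 2 and without 12xWT male replicate 2 (adjusted p = 0.0449 and 0.0347, edgeR).

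Lnk, an SH2B-family adaptor that promotes signalling from InR, was the steadiest of the 10 genes. It had 91.8, 91.6 and 90.8 CPM in 12xWT males and 89.4, 90.7 and 89.5 CPM in 12xWT females, against 95.3 and 96.1 CPM in yw males and 91.9 and 90.8 CPM in yw females. Within each sex 12xWT lay below yw without overlap, which 11.0% of tested genes did in both sexes. Lnk fell by 0.07 on the log2 scale (SE 0.021, edgeR adjusted p = 0.0314). The call held in 6 of 16 alternatives, and the highest adjusted p among them was 0.115, with library size as the only scaling, where the log2 fold change was -0.05 (edgeR). Of 8694 genes, those with the library profile nearest to that of Lnk were Pp1alpha-96A and Nup50, with a root mean square difference of 0.0143 and 0.0169 in centred log2(CPM + 0.5) over 10 libraries.

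**Figure D3:**
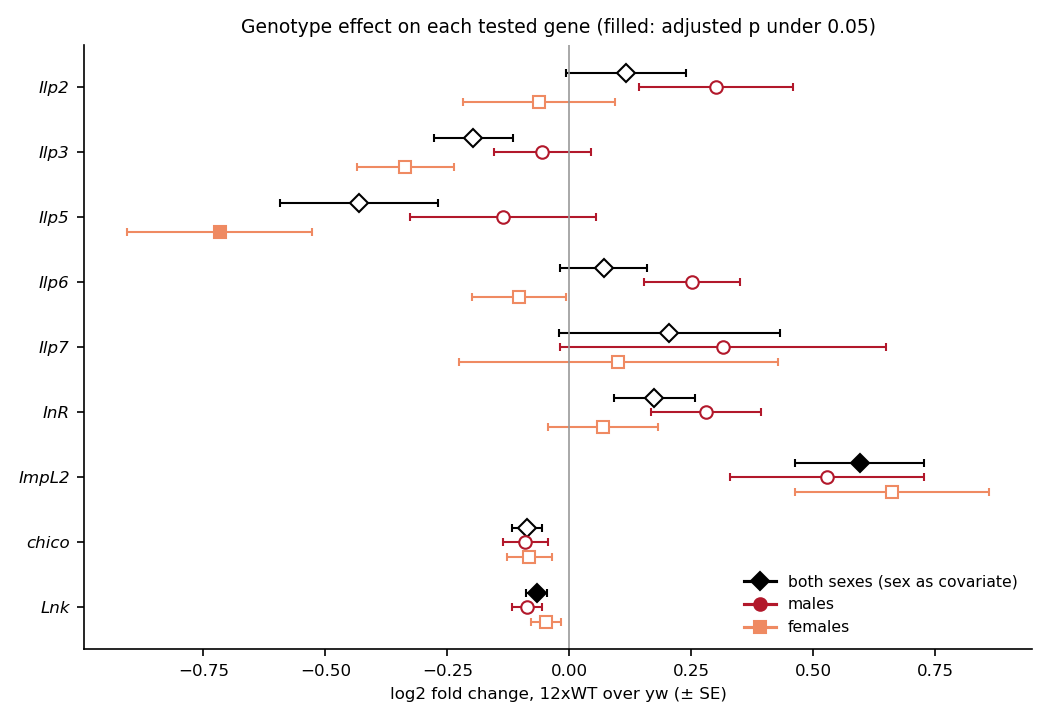
Log2 fold change of 12xWT over yw (x axis) for the 9 tested insulin genes, with both sexes in a model with sex as covariate, in males and in females; bars are the SE and filled symbols have an adjusted p under 0.05. ImpL2 and Lnk were called over both sexes, and Ilp5 was called in females.

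ImpL2 had 68.3, 66.99 and 52.0 CPM in 12xWT males and 79.2, 67.3 and 90.3 CPM in 12xWT females, against 45.7 and 39.8 CPM in yw males and 41.4 and 56.9 CPM in yw females. Every 12xWT library lay above every yw library of the same sex, as 18.1% of tested genes did. The genotypes overlapped across sexes, since 12xWT male replicate 3 was below yw female replicate 2. The log2 fold change was 0.59 (SE 0.13, edgeR adjusted p = 0.0101), with 0.53 in males and 0.66 in females. The call over both sexes held in 16 of 16 alternatives, with log2 fold changes of 0.50 to 0.67 and adjusted p-values of 0.000252 to 0.0480. Within a single sex it was not called by edgeR (adjusted p = 0.107 in males and 0.0779 in females), while DESeq2's Wald test called it in both (adjusted p = 0.0493 and 0.0143). The genes with the nearest profile were CG44085 and CG5835, at root mean square differences of 0.158 and 0.162 in centred log2(CPM + 0.5) over 10 libraries.

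ImpL2 was first described as an ecdysone-inducible gene, and a ring gland, the gland that makes ecdysone and juvenile hormone, is attached to each larval brain. Of 13 ring gland markers tested, 9 were called higher in 12xWT and 0 lower, or 69.2%. Of all tested genes, 33.4% were called and 17.0% were called higher. The median log2 fold change of the markers was 0.79. Their summed level was 715 to 1054 CPM in 12xWT and 465 to 655 CPM in yw, and no marker was at 0. The most abundant were the sterol transporter Npc1a, with 276 ± 21.3 CPM in 12xWT (SD, n = 6) and 205 ± 15.7 CPM in yw (SD, n = 4), and the ecdysone synthesis gene phm, with 121 ± 25.6 CPM in 12xWT and 57.2 ± 23.8 CPM in yw; phm was called in 6 of 16 alternatives. Within the 4 groups of genotype and sex, the order of the libraries by ImpL2 was the same as by the ring gland sum in 2. These were the yw groups, with 2 libraries each, and in both 12xWT groups, with 3 libraries each, the order differed. Groups of 2 or 3 libraries can match in order by chance. The part of ring gland RNA in the level of ImpL2 was not tested.

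The wider pathway was described by a list of 49 genes for insulin, TOR and Ras signalling, of which 47 were found and tested. Of these, 10 rose and 2 fell in 12xWT, or 25.5%, against 33.4% of all genes, and the median log2 fold change was 0.02. The kinases Akt1, Tor and S6k and the transcription factor foxo were not called. Their log2 fold changes were -0.03, -0.0030, -0.0012 and -0.04, with edgeR adjusted p-values of 0.448, 0.950, 0.974 and 0.512. These 4 genes were singled out after their values were seen. Upstream of them, Pdk1, the kinase that activates Akt1, rose by 0.23 (SE 0.064, adjusted p = 0.0237) and Pi3K92E, the catalytic subunit of phosphoinositide 3-kinase, by 0.09 (SE 0.029, adjusted p = 0.0258, both by edgeR). Tsc1, an inhibitor of Tor, rose by 0.08 and phl, the fly Raf kinase, fell by 0.07. Of 16 alternatives, Pi3K92E was called in 12, Pdk1 in 11, Tsc1 in 10 and phl in 6.

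Larger rises were seen in single genes of the list. The MAP kinase rl stood at 175 to 188 CPM in 12xWT and 110 to 123 CPM in yw, a log2 fold change of 0.63 (SE 0.030, edgeR adjusted p = 3.17e-08). Sos, which activates Ras, rose by 0.21 (SE 0.027) and Socs36E, an inhibitor of cytokine signalling, by 0.35 (SE 0.028). Their edgeR adjusted p-values were 0.000110 and 2.90e-06, and the 3 genes were called in 16 of 16 alternatives.

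Thor gave the largest change in the list. It had 56.9, 30.8 and 45.8 CPM in 12xWT males and 42.8, 54.8 and 47.9 CPM in 12xWT females, against 19.2 and 8.71 CPM in yw males and 14.8 and 17.3 CPM in yw females. All 6 12xWT libraries lay above all 4 yw libraries; 24.0% of tested genes did not overlap in one direction or the other. The rise was 3.06-fold, or 1.62 on the log2 scale (SE 0.26, edgeR adjusted p = 0.00244), and was called within males (3.16-fold, adjusted p = 0.0280) and within females (2.98-fold, adjusted p = 0.0465) in the edgeR model with a mean per group. It was called in 16 of 16 alternatives. In each of the 4 groups, the order of the libraries by Thor was the same as by the summed ring gland level: 12xWT male replicate 2 and yw male replicate 2 were lowest in both, at 715 and 465 CPM of ring gland markers. For the other called foxo targets the order matched in 3 of 4 groups for Lip4 and in 1 of 4 for Sesn. This order was noticed after the values were seen, and the part of ring gland RNA in the level of Thor was not tested. With 2 or 3 libraries per group an order can match by chance, and how often other genes match was not computed.

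Among 8 foxo target genes, 3 of which are also in the list above, 7 were tested. Of these, 3 rose and 0 fell, or 42.9%, against 33.4% of all genes called and 17.0% called higher. With so few genes tested, this share is not shown to differ from that of all genes. Thor and Sesn were already counted among the rises of the list above. The median log2 fold change was 0.31. Besides Thor the genes that rose were Lip4, a lipase, and Sesn, the stress-inducible inhibitor of TOR signalling. Lip4 averaged 66.3 ± 4.50 CPM in 12xWT (SD, n = 6) and 50.5 ± 2.76 CPM in yw (SD, n = 4), a log2 fold change of 0.37 (SE 0.038, edgeR adjusted p = 2.14e-05). Sesn averaged 50.5 ± 5.56 CPM in 12xWT and 36.4 ± 2.89 CPM in yw, a log2 fold change of 0.45 (SE 0.091, edgeR adjusted p = 0.00499). Neither overlapped between genotypes, as for 24.0% of tested genes, and both were called in 16 of 16 alternatives. Lip4 was also called within each sex by edgeR. Sesn was called within males (log2 fold change 0.59, edgeR adjusted p = 0.00876) and not within females (0.32, edgeR adjusted p = 0.122). The lipase bmm at 0.13, the glucosidase tobi at 0.31, the autophagy gene Atg8a at -0.02 and REPTOR, listed as CG13624, at 0.03 on the log2 scale were not called. InR, also a known foxo target, was left out of this list and was not called (log2 fold change 0.17, edgeR adjusted p = 0.143).

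**Figure D4:**
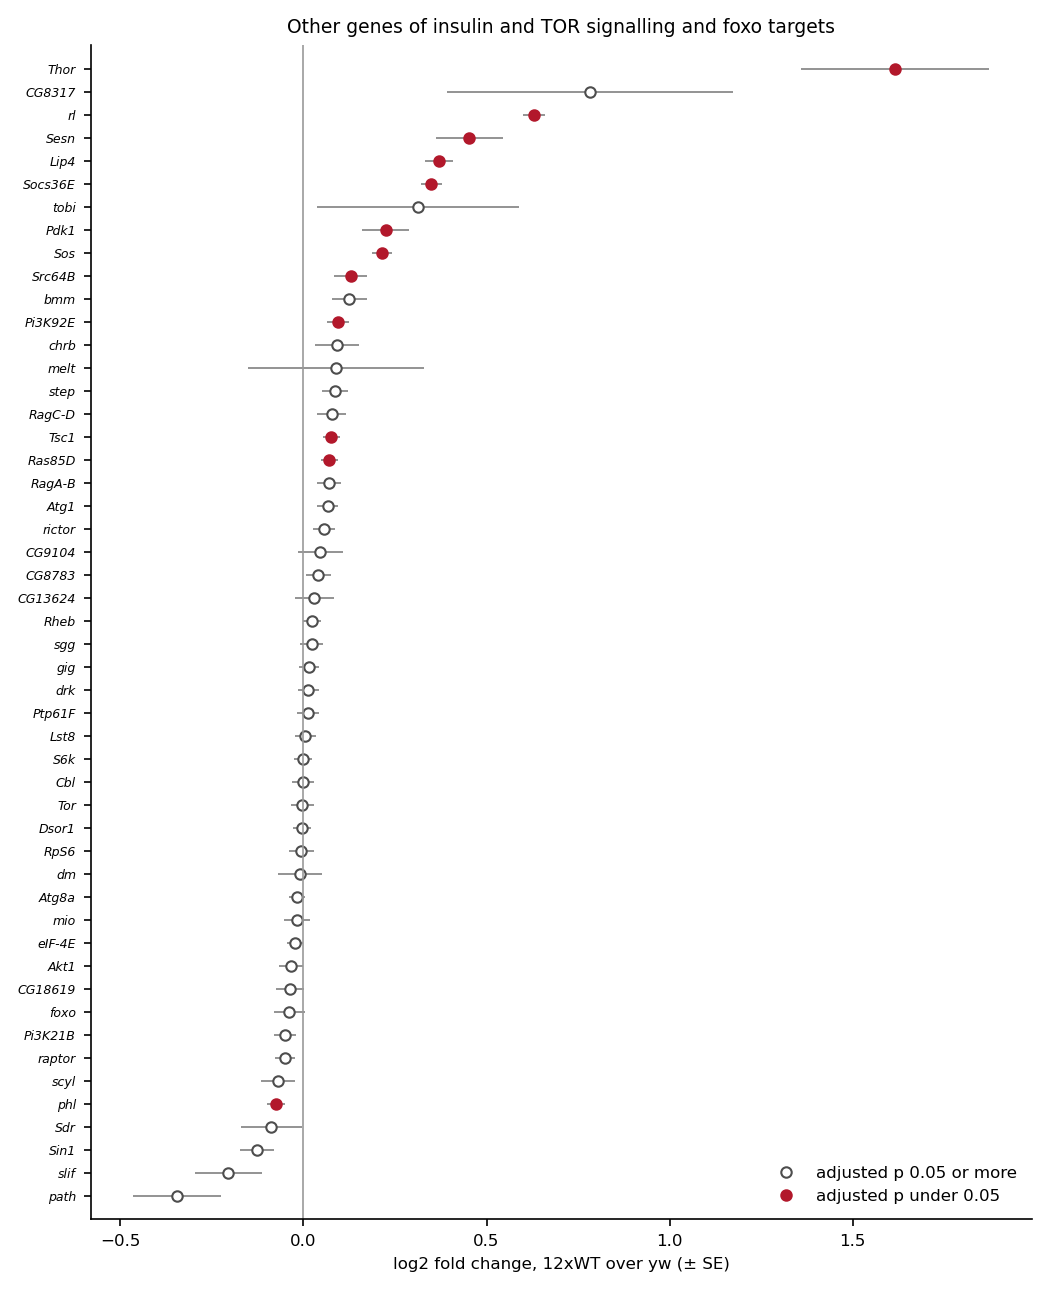
Log2 fold change of 12xWT over yw (x axis, bars are the SE) for tested genes of the insulin, TOR and Ras list and the foxo target list, sorted by value, under the names of the count table. Thor lies at 1.62, and most genes lie near 0.

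**Figure D5:**
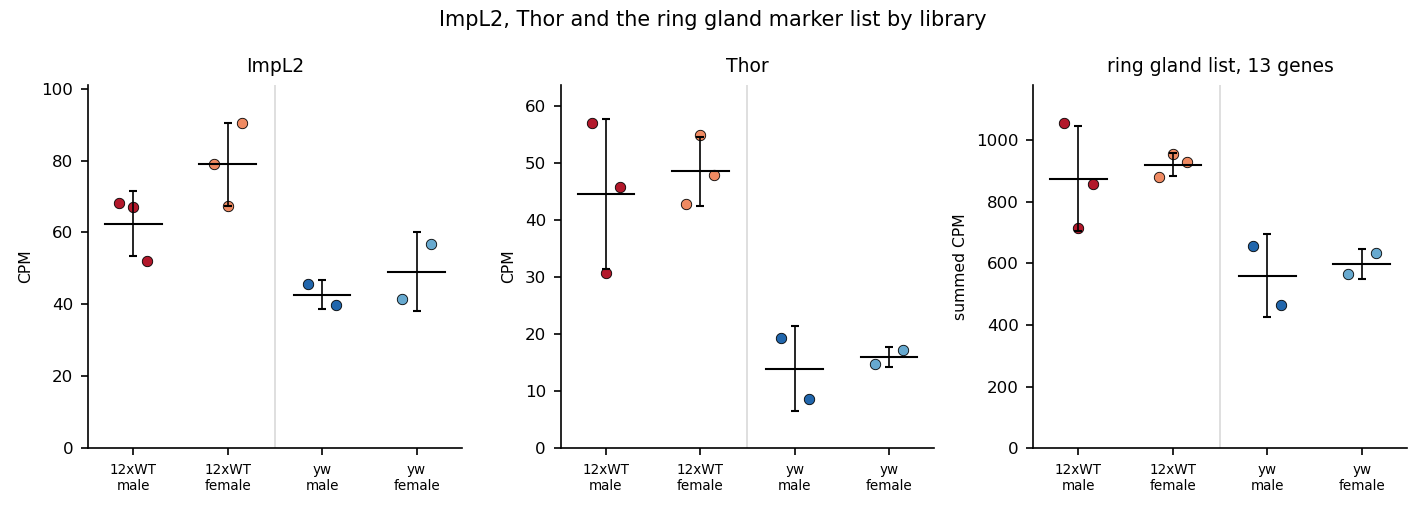
CPM of ImpL2 and Thor and summed CPM of 13 ring gland markers (y axes, linear from 0) in each library by genotype and sex; points are libraries, horizontal bars means and error bars the SD (n = 3 per 12xWT group, n = 2 per yw group). Thor lay at 30.8 to 56.9 CPM in 12xWT and 8.71 to 19.2 CPM in yw, and the ring gland sum at 715 to 1054 and 465 to 655 CPM.

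Genes that act on the insulin-producing cells were described by a list of 34, of which 32 were tested; 6 rose and 8 fell, or 43.8%, against 33.4% of all genes, with a median log2 fold change of 0.0091. Among the nutrient signals, CCHa2-R, the receptor for a peptide that promotes Ilp2 and Ilp5 expression, rose by 0.45 (SE 0.067, edgeR adjusted p = 0.000412). The receptor mth and its ligand sun, which acts on these cells, fell by 0.26 and 0.25. The neuropeptide receptor sNPF-R rose by 0.21, the serotonin receptor 5-HT1A fell by 0.12 and egr, the fly tumour necrosis factor, rose by 0.21. Of the ion channel genes, Sur, the sulfonylurea receptor, fell by 0.32 and the potassium channel KCNQ by 0.38, with 27.4% of the exonic length of KCNQ shared with other genes. The cytokine receptor dome fell by 0.08, and Lgr4, a relative of Lgr3 listed as CG34411, rose by 0.40 with 29.2% of its exonic length shared with CG12096. The edgeR adjusted p-values of these 9 lay between 0.000959 and 0.0139. In 16 alternatives dome was called in 14 and the other 9 named genes in all. In bulk RNA, the levels of these genes in the insulin-producing cells cannot be told apart from their levels in other cells.

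Between the sexes, 0 of the 9 insulin genes were called by edgeR, against 1.68% of all genes; 1 had an unadjusted p under 0.05 and DESeq2 called the same gene, Ilp6. Ilp6 was lower in yw males, at 23.0 and 24.4 CPM, than in yw females, at 35.2 and 33.0 CPM, and in 12xWT the sexes overlapped at 26.6 to 31.2 CPM in males and 28.1 to 35.4 CPM in females. The log2 difference of males over females was -0.32 (SE 0.087, edgeR adjusted p = 0.147). Without 12xWT female replicate 2, the library with the highest Y-linked signal among females, it was -0.39 and called (edgeR adjusted p = 0.0171). The next largest differences were -0.29 for Ilp7, -0.29 for ImpL2 and -0.23 for Ilp2 on the log2 scale, all lower in males (edgeR adjusted p = 0.804, 0.506 and 0.608). The other 5 genes differed by at most 0.08.

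Within males alone, edgeR called 0 of the 9 genes between genotypes, against 21.0% of all genes, while 4 had an unadjusted p under 0.05 and DESeq2's Wald test called ImpL2 and InR. The difference of the genotype effect between males and females was called for 0 of 9 genes by edgeR and by DESeq2, as for 0 of all genes tested by edgeR. Ilp6 alone had an unadjusted p under 0.05, with a difference of 0.35 (SE 0.14, edgeR adjusted p = 0.9999). The point estimate was larger for Ilp5, at 0.58 (SE 0.27), with a log2 fold change of -0.14 in males and -0.72 in females. The effect of genotype on the insulin genes was therefore not shown to differ between the sexes. The part of the Y-linked signal of 12xWT females in these within-sex values was not tested.

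The remaining marker lists set the levels above in context. Over all tested genes 17.0% were called higher and 16.4% lower, or 33.4% together. Of 9 neuron markers 1 was called higher and 6 lower (77.8%), with a median log2 fold change of -0.19. Of 8 neuroblast markers 0 were higher and 5 lower (62.5%), with a median of -0.15. Eye disc markers gave 0 higher and 3 lower of 9 (33.3%). Imaginal disc markers gave 3 and 3 of 13 (46.2%), and salivary gland markers 0 and 0 of 8. Muscle markers gave 1 higher and 0 lower of 10 (10%), with a median of 0.55. Blood cell markers gave 2 and 0 of 8 (25%), with a median of 1.74. The part of these differences in the levels of the insulin genes was not tested.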

How the data were processed

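PolyA-selected, stranded libraries of larval brains were sequenced, per the labels' protocols. Per the file headers, the deposited counts are fragments over the exons of each dm6 gene from featureCounts 2.0.1 in paired mode, with no strand or multi-mapping option set. STAR 2.7.7a is named in the submitters' processing notes. The authors' deposited table of yw over 12xWT gives a mean normalized count (signal), a log2 fold change with its error, a test statistic and a log10 adjusted p (scores), a raw p-value and an adjusted one per gene; it was used for comparison alone. All 10 count columns matched a sample by name, with 0 unmatched.

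Tests used edgeR 4.0.16 and, as an alternative, DESeq2 1.42.0, under R 4.3.3. Genes were filtered with filterByExpr over the 4 groups and scaled by TMM (factors 0.985 to 1.02). The effect of genotype (6 libraries of 12xWT minus 4 of yw) and the sex effect (male minus female) came from edgeR's robust quasi-likelihood test in an additive model; within-sex effects and their difference from a fit of the 4 group means. P-values were adjusted by Benjamini-Hochberg over all 11146 genes, with a threshold of 0.05. CPM is per 1 M of a library's total. Standard errors are the absolute log2 fold change over the square root of the F statistic. On data simulated from these means, edgeR recovered 63 of 100 genes changed by 0.5 and 84 of 100 changed by 1 on the log2 scale for the genotype effect, over 11002 genes. No other gene was changed and no sex effect was simulated, whereas 33.4% of genes were called in the data. These rates therefore do not measure recovery for the insulin genes. Replicate counts varied beyond Poisson noise (chi-square over its degrees of freedom 8.84 to 27.1); each was used as a separate sample, as labelled. Depth of 52.0 to 79.9 M puts 3 counts at 0.0375 to 0.0577 CPM.

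The members, the 15 gene lists and the naming rule were chosen with earlier results of these data known. All 10 members were named; of the pathway, foxo target and insulin-producing cell lists, up to 10 called genes with the smallest p; of cell type lists, at most the 2 most abundant genes; and for each called member the 2 nearest profiles. Of 201 list genes, 199 were found, 15 by an older symbol. Alternatives were DESeq2, other scalings, no filter, no robust estimation, a replicate block and leaving out each of the 10 libraries. No protein or promoter sequence was used here, and 1 named gene of the pathway list is not reported here.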

Additional observations from a re-analysis of the deposited data

Results flagged for a closer look

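In 3 of 36 sets of libraries checked, a single library stood far from the others of its genotype or sex; chance alone marks about 1 in 20 such sets, or 1.8 of 36. For Ilp3, yw female replicate 2 had 24.3 CPM, against 20.5 to 21.1 CPM in the other 3 yw libraries. For Ilp7, 12xWT male replicate 3 had 1.31 CPM, against 0.601 to 0.769 CPM in the other 4 male libraries. In females, 12xWT female replicate 1 had 1.25 CPM of Ilp7, against 0.820 to 0.944 CPM in the other 4. Ilp3 is made in the insulin-producing cells and Ilp7 in a few neurons of the ventral nerve cord.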

How the results depend on the processing

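The number of insulin genes called between genotypes was 2, and 1 (ImpL2) with library size only, without the filter on low counts, or with the replicate block; leaving out libraries gave 1 to 3. In females it was 1 (Ilp5), 3 by DESeq2, 2 without robust estimation and 0 to 2 with a library left out. In males it was 0, 2 by DESeq2 and 0 to 1 with a library left out. For the sex effect it was 0, 1 by DESeq2 (Ilp6) and 0 to 1 with a library left out. The insulin, TOR and Ras list gave 12 calls, 6 with the replicate block and 6 to 14 with a library left out; the list of genes acting on the insulin-producing cells gave 14, and 9 to 13 with a library left out. Same-numbered libraries correlated between -0.171 and 0.104 in their deviations from the group mean, and 2 of 10 correlated best with their own number. In groups of 2 libraries these deviations mirror each other. The check therefore cannot decide whether replicate numbers pair the libraries. Scaling by library size alone called 2113 of all genes as higher and 1340 as lower, in place of 1890 and 1832. With a library left out, signs turned for 10 uncalled log2 values: for genotype in females, Ilp2 ranged over -0.219 to 0.0185, Ilp7 over -0.0822 to 0.214 and InR over -0.0644 to 0.216, for genotype in males, Ilp5 over -0.315 to 0.0666 and Ilp7 over -0.0958 to 0.496, for sex, Ilp5 ranged over -0.152 to 0.0651 and InR over -0.0333 to 0.0841, and for the difference between sexes, Ilp7 over -0.20 to 0.40, ImpL2 over -0.376 to 0.0703 and chico over -0.0410 to 0.0243; the cause was not tested. Depth limits Ilp7 and Ilp8 most, with at most 75 and 5 counts.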

Other observations

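The authors' deposited table, which gives yw over 12xWT so that a negative log2 value means higher in 12xWT, lists -0.60 for ImpL2 (adjusted p = 0.000102), 0.43 for Ilp5 (adjusted p = 0.0142), 0.09 for chico (adjusted p = 0.0475) and 0.07 for Lnk (adjusted p = 0.0944). In the authors' deposited table ImpL2, Ilp5 and chico thus pass 0.05 and Lnk does not, whereas the edgeR fit with sex as covariate called ImpL2 and Lnk.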
